A study of Mus musculus with 6 samples.

Results

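The heat shock chaperones described here are 10 genes: Hspa1a, Hspa1b, Hspa1l and Hspa8 of the HSP70 family, Hspa4l and Hsph1 of the HSP110 family, Hsp90aa1 and Hsp90ab1 of the HSP90 family, the DNAJ protein gene Dnajb1, and Hsf1, which encodes heat shock factor 1. They were found by matching the Ensembl identifiers of the count files to symbols in the GENCODE M21 mouse annotation, and all 10 were present among the 51826 genes listed. RNA was measured in whole testes of C57BL/6J mice at 8 weeks of age, in 3 wild-type samples and 3 samples of a knockout of KIFC1, a kinesin motor that the series title places in meiotic recombination and male fertility. The knockout allele, and whether it was limited to a cell type by a Cre driver, were not stated in the labels used here, and neither was whether the samples of a group were separate animals. The p-values therefore reflect only how these samples spread, and that spread may be technical.

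HSP70 proteins bind unfolded stretches of other proteins and release them in a cycle driven by ATP. DNAJ proteins bring substrates and start ATP hydrolysis, HSP110 proteins act as exchange factors that release ADP, and HSP90 takes over clients at a later step of folding. Heat shock factor 1 is the main activator of the inducible genes among them under heat or proteotoxic stress, and the testis also makes germ cell forms of several families, such as HSPA2 in spermatocytes and HSPA1L in spermatids. The libraries are of whole testis, so a level given here is that of all testis cells together. In such bulk values, fewer cells of a type and less RNA per cell cannot be told apart.

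Kifc1 (ENSMUSG00000079553) checked the labels: it measured 15.5, 16.1 and 14.7 counts per 1000000 counts (CPM) in the wild-type libraries and 0.326, 0.737 and 0.282 CPM in the knockout libraries, a log2 fold change of -5.09 (SE 0.35, edgeR quasi-likelihood test, Benjamini-Hochberg adjusted p = 0.00378). Library totals ran from 29274603 to 38703606 counts, and 3 counts, the limit that a count of 0 allows, were worth 0.0775 to 0.102 CPM (counting error only). Mitochondrial genes took 0.661% to 0.935% of counts in wild type and 1.54% to 5.74% in knockout. Of 10 lists of cell type markers none had a marker at 0 in all samples, and the summed level of the spermatocyte list was 2610 to 2790 CPM in wild type and 2560 to 3030 CPM in knockout, with 2 of 8 markers called higher. The elongating spermatid list summed to 21800 to 23400 and 16800 to 27800 CPM, with 1 marker called higher and 2 lower of 8. The round spermatid list summed to 1570 to 1990 and 1500 to 1870 CPM, the Sertoli list to 738 to 1070 and 1040 to 1620 CPM (1 of 8 called higher), and the Leydig list to 623 to 1400 and 1160 to 1760 CPM. The endothelial list summed to 13.5 to 30.3 and 26.5 to 36.3 CPM, and the erythroid list to 62.5 to 132 and 41 to 78.1 CPM (1 of 5 called lower). Median log2 fold changes of the markers were 0.89 (Leydig), 0.66 (endothelial), 0.35 (Sertoli) and -0.81 (erythroid). They were 0.87, 0.56, 0.67 and -0.64 with library trends in GC content and exon length taken out. Medians of the other lists lay between -0.37 and 0.2, and 1 of 8 spermatogonial markers was called lower. Fold changes over all genes followed the GC content of the exons, as described further on beside the chaperones they touch. The part of library composition in any result on the chaperones was not tested.

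As counted, the chaperone genes covered a wide span of levels, with the spermatid gene Hspa1l at the top and the heat-inducible gene Hspa1b at the bottom. Levels between genes are given as CPM per kilobase of exon, with the exons of all annotated transcripts of a gene joined. This length ran from 2472 bases for Hspa1l to 11792 for Hspa4l and can exceed that of the transcripts in use. The order of genes and their shares of a family therefore depend in part on the annotation. Hspa1l stood at 399 ± 16.2 CPM per kilobase in wild type (mean ± SD, n = 3), rank 110 among the tested genes. Hsp90aa1 followed at 245 ± 8.98, Dnajb1 at 156 ± 31.8, Hsp90ab1 at 112 ± 6.18, Hspa4l at 59.9 ± 3.37 and Hspa8 at 48.7 ± 4.43 CPM per kilobase. The last 4 were far lower: Hspa1a at 10.9 ± 0.935, Hsph1 at 5.75 ± 0.26, Hsf1 at 4.84 ± 0.14 and Hspa1b at 3.7 ± 0.388 CPM per kilobase, which was rank 9004. As counted, no neighbours in this order overlapped in wild type. The places of Hspa1a and Hspa1b are uncertain, since 66.3% and 62.3% of their 50-base words (runs of 50 bases) occur in other genes. How reads with several matches were counted is not given, and both levels may be understated. Hspa1l, Hsp90aa1 and Hspa8 share 71.4%, 47.5% and 39.4% of their 50-base words with other genes. Counts of 4 Hspa8 copies made up 17.3% to 25.4% of their sum with Hspa8, so the place of Hspa8 under Hspa4l is uncertain too. In knockout Hsp90ab1 (126 to 165 CPM per kilobase) stood above Dnajb1 (97.5 to 110), the reverse of their wild-type order. The knockout ranges of Hspa4l and Hspa8 overlapped, as did those of Hspa1a and Hsph1, Hsph1 and Hsf1, and Hsf1 and Hspa1b, so that the order of these pairs is not set there.

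**Figure D1:**
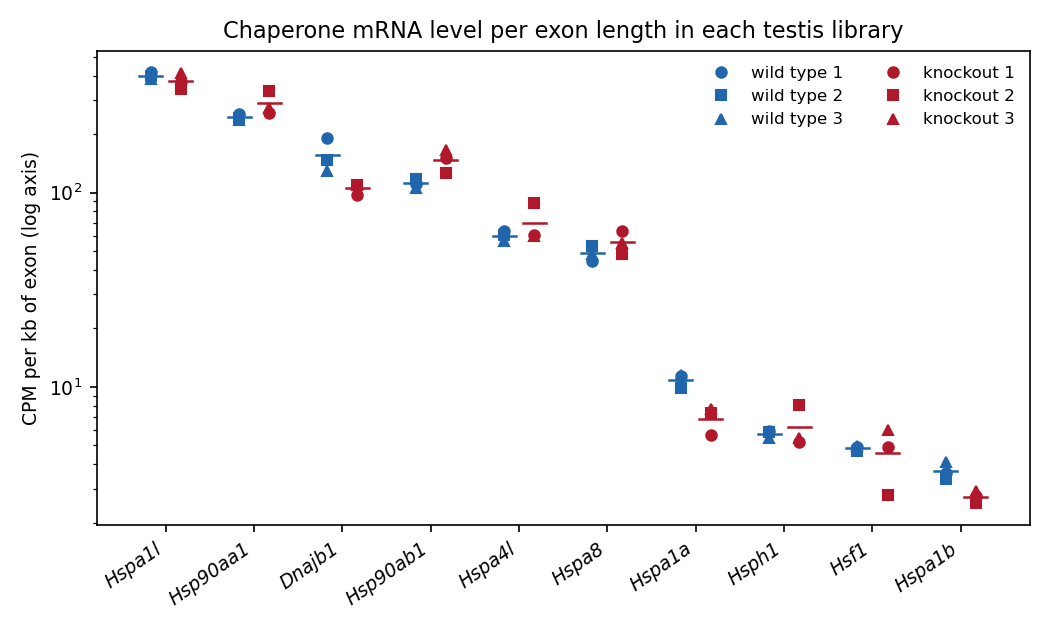
Level of each chaperone gene in the 6 libraries, in CPM per kilobase of exon on a log axis, with points for single libraries and horizontal bars for the mean of each group. Hspa1l lies between 342 and 416 and Hspa1b between 2.52 and 4.13 CPM per kilobase, and for Hspa1a, Hspa1b and Dnajb1 all knockout points lie under all wild-type points.

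None of the 10 genes was called at an adjusted p under 0.05 by edgeR's quasi-likelihood test, where 8.23% of the 21518 genes tested were called (3.11% higher and 5.12% lower in knockout). All 10 passed the filter on low counts. The unadjusted p was under 0.05 for 4 of them, Hspa1a, Hspa1b, Hsp90ab1 and Dnajb1, against 27.1% of all genes. DESeq2's Wald test called 1, Hspa1a, and 15.3% of all genes. The groups did not overlap for 5 genes, 2 higher and 3 lower in knockout, where 32.7% of all genes had groups that did not overlap. Both counts lie within a few genes of what the background share gives for 10 genes. The median log2 fold change of the 10 was 0.02, beside -0.01 over all genes tested, with 5 values above and 5 below 0.

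Hspa1a and Hspa1b encode the heat-inducible HSP70 proteins and are neighbouring genes without introns on chromosome 17. Hspa1a (ENSMUSG00000091971) lies at chr17:34969190-34972156 and Hspa1b (ENSMUSG00000090877) at chr17:34956436-34959238 on the minus strand (GRCm38), 9951 bases apart. Hspa1l (ENSMUSG00000007033, chr17:34972703-34979285, plus strand) starts 546 bases from the start of Hspa1a and is read the other way. The RefSeq promoter windows of these 3 genes, 250 bases before to 50 after the start on GRCm38.p6, are shown because the inducible pair and the spermatid gene share a locus but not a level. They are read 5′ to 3′ on the strand of the gene, at chr17:34972107-34972406 (minus) for Hspa1a, chr17:34959189-34959488 (minus) for Hspa1b and chr17:34972453-34972752 (plus) for Hspa1l. Capitals mark motif matches in Hspa1a and Hspa1l, and in Hspa1b the bases that differ from Hspa1a.
Hspa1a: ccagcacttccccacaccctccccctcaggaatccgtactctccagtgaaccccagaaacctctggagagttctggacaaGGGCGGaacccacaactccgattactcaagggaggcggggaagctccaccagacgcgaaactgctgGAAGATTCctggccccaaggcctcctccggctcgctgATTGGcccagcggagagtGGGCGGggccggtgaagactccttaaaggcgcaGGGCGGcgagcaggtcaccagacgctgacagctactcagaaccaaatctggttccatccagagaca
Hspa1b: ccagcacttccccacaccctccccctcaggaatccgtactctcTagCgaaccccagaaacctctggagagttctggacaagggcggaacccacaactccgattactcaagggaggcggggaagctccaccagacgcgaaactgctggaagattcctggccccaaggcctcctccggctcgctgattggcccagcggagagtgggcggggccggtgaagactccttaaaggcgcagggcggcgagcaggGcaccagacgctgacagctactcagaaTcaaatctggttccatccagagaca
Hspa1l: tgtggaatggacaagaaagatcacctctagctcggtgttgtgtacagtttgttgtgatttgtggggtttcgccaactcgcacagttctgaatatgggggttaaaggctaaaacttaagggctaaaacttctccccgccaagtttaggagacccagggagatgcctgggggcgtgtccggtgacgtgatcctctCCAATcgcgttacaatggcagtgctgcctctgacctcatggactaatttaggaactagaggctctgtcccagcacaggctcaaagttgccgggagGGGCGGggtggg

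The windows of Hspa1a and Hspa1b were 98.7% identical and differed at 4 of 300 positions, C44T, T47C, T249G and C276T, counted from 1 at the 5′ end of the Hspa1a window and given as the Hspa1a base, the position and the Hspa1b base. Both strands were searched for the heat shock element, the binding site of heat shock factors. Its 2-unit forms were written as GAANNTTC (head to head) and, with the units turned the other way, as TTCNNGAA (tail to tail), and the 3-unit form joins both so that they share a unit. The TATA box (TATAAA), the CCAAT box by its name and the GC box (GGGCGG) were searched likewise. Hspa1a and Hspa1b both held GAAGATTC at 104 bases before the start, a match to GAANNTTC, which 7.86% of 32851 promoter windows of this length hold. The Hspa1l window held neither form of the element. It held a CCAAT box (37.4% of windows) and a GC box (35.7%), and the windows of Hspa1a and Hspa1b held both kinds of box too. A match is a match of letters only, and no match says only that these letters are not in the window.

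Hspa1a was lower in every knockout library, and had the lowest p of the 10 genes. It measured 33.9, 29.1 and 34 CPM in the wild-type libraries and 16.8, 21.7 and 22.7 CPM in the knockout libraries, from 617 to 1155 counts per library. The groups did not overlap, and the fold, 0.631, had a log2 value of -0.66 (SE 0.18, 95% interval -1.06 to -0.27, adjusted p = 0.0521), just short of the threshold. The call depended on the method: DESeq2 gave a log2 fold change of -0.64 with an adjusted p of 0.0175, and edgeR with only genes of 1 CPM or more in 3 samples gave an adjusted p of 0.0456. Without knockout 2 it passed at -0.71 (adjusted p = 0.0442). When offsets took out how each library's counts ran with exon GC and exon length (trends removed), the log2 fold change was -0.19 (SE 0.2, adjusted p = 0.624). Exons of Hspa1a are 58.9% GC.

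Hspa1b measured 10.1, 9.44 and 11.6 CPM in the wild-type libraries and 7.66, 7.06 and 8.13 CPM in the knockout libraries, from 249 to 371 counts. Its groups did not overlap either, with a log2 fold change of -0.44 (SE 0.18, adjusted p = 0.163). With the trends removed the value was -0.01 (SE 0.17, adjusted p = 0.976), near 0 on that scale. These paralogs share much of their sequence: 62.3% of the 50-base words of Hspa1b exons occur in Hspa1a, and 58.8% of those of Hspa1a in Hspa1b. How the authors' counting treated reads that match both is not given, so the split between them is uncertain. The sum of both genes, which does not depend on the split, measured 44, 38.6 and 45.5 CPM in the wild-type libraries and 24.4, 28.8 and 30.8 CPM in the knockout libraries. Its log2 fold change was -0.61 (SE 0.16, adjusted p = 0.0511), also short of the threshold.

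Hspa1l, the spermatid form at the same locus, overlapped between the groups. It measured 1030, 982 and 949 CPM in the wild-type libraries and 921, 844 and 1020 CPM in the knockout libraries. Knockout 3 lay near the highest wild-type library, and the log2 fold change was -0.09 (SE 0.14, 95% interval -0.4 to 0.23, adjusted p = 0.732). The value was 0.17 (SE 0.12, adjusted p = 0.449) with the trends removed. The antisense gene Gm10501 lies over Hspa1l and shares 71.4% of its 50-base words. Without a stated strand setting the reads of both cannot be told apart, although Gm10501 itself held only 6 to 115 counts per library against 28870 to 38579 for Hspa1l.

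The ratio of Hspa1l to Hspa1a within a library, per kilobase, was 36.4, 40.4 and 33.5 in wild type and 66, 46.7 and 54 in knockout. The wild-type and knockout ratios did not overlap (36.8 ± 3.48 and 55.5 ± 9.76), and the exact two-sided permutation test gave p = 0.1, which is the smallest p that 3 against 3 allows, and 0.3 when adjusted over the 6 ratios computed. The ratio of Hspa1a to Hspa1b was 2.95 ± 0.201 in wild type and 2.54 ± 0.429 in knockout (exact p = 0.2, adjusted 0.4). All 3 genes lie on the chromosome of Kifc1, between 1066 and 1082 kilobases from it. Of 150 tested genes within 2 Mb of Kifc1, 2 were called higher and 19 lower, which is 14% called, with a median log2 fold change of -0.47. That neighbourhood is rich in GC, with a median exon GC of 54.4% beside 48.8% over all tested genes, and with the trends removed its median was -0.09. edgeR then called 0 of these genes, where it called 0.0837% of all genes. Without knockout 2 and with the trends removed, 28 were called, or 18.2%, beside 13.2% of all genes. The part of the locus in the Hspa1a and Hspa1b values was not tested.

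Hspa8 encodes the constitutive HSP70 protein of most cells, also called HSC70. The gene (ENSMUSG00000015656, chr9:40800984-40810087, plus strand) carries small nucleolar RNA genes within its span. It measured 191, 229 and 208 CPM in the wild-type libraries and 273, 207 and 236 CPM in the knockout libraries. The groups overlapped and did not differ by the test (log2 fold change 0.19, SE 0.15, 95% interval -0.16 to 0.54, adjusted p = 0.468). Processed pseudogenes and a long noncoding gene elsewhere in the genome share 39.4% of its 50-base words. With the counts of 4 such copies added, which made up 17.3% to 25.4% of the sum, the value was 0.19 (SE 0.14, adjusted p = 0.413), the same as on the gene's own counts.

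Hspa4l encodes an HSP110 protein with high levels in testis. The gene (ENSMUSG00000025757, chr3:40744495-40796103, plus strand) measured 745, 710 and 665 CPM in the wild-type libraries and 717, 1040 and 705 CPM in the knockout libraries. Knockout 2 was the highest of the 6 libraries, while the other knockout libraries lay within the wild-type range. The log2 fold change was 0.22 (SE 0.18, 95% interval -0.19 to 0.62, adjusted p = 0.478). It was 0.01 without knockout 2, and -0.28 (SE 0.19, adjusted p = 0.407) with the GC and length trends removed, so its sign was not settled. Hspa4l has the longest exons of the 10 genes, 11792 bases, and the lowest exon GC, 39.5%.

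Hsph1, which encodes HSP105, is the heat-inducible member of the same family. Its gene (ENSMUSG00000029657) lies at chr5:149614287-149636376 on the minus strand. It has 2 RefSeq promoter windows, and both held the fullest heat shock element of the windows searched. The first, at chr5:149636287-149636586 on the minus strand (GRCm38.p6), is shown with motif matches in capitals.
Hsph1: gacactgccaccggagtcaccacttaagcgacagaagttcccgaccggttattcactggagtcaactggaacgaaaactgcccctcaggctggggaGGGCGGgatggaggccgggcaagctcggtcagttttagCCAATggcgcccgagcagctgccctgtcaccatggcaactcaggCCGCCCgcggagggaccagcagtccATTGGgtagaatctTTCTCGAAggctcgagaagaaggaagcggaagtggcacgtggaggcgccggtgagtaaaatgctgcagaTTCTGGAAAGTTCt

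The Hsph1 window held TTCTCGAA at 33 bases before the start and TTCTGGAA at 37 bases after it, both matches to TTCNNGAA, which 8.52% of windows hold. The second match was part of TTCTGGAAAGTTC, a match to the 3-unit form that 0.603% of windows hold, and overlapped GAAAGTTC, a match to GAANNTTC. In the other Hsph1 window, TTCTCGAA stood at 54 bases before the start and TTCTGGAA at 16 bases after it. Windows were in the table for 6 of the 10 genes: those of Hspa4l and Dnajb1 held neither 2-unit form, as did that of Hspa2, and 15.1% of all windows held at least 1 of them.

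Hsph1 mRNA measured 42.9, 42.8 and 39.6 CPM in the wild-type libraries and 37.7, 58.3 and 39.6 CPM in the knockout libraries. Knockout 2 was again the highest library, and the other 2 knockout libraries lay at or under the lowest wild-type value, 39.6 CPM. The log2 fold change was 0.11 (SE 0.19, 95% interval -0.32 to 0.55, adjusted p = 0.744), and -0.11 without knockout 2. Within the HSP110 family the summed level per kilobase was shared among Hspa4l (51.5 ± 0.443% in wild type and 47.2 ± 5.06% in knockout), Hspa4, the widely expressed form (43.5% and 48.6%), and Hsph1 (4.95% and 4.21%). The ratio of Hspa4l to Hspa4 was 1.21, 1.17 and 1.17 in wild type and 0.885, 1.25 and 0.824 in knockout (exact two-sided permutation p = 0.4), with knockout 2 on the wild-type side.

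Hsp90ab1, the constitutive cytosolic HSP90 gene (ENSMUSG00000023944, chr17:45567775-45573271, minus strand), was higher in every knockout library. It measured 334, 354 and 316 CPM in the wild-type libraries and 453, 378 and 494 CPM in the knockout libraries. The groups did not overlap, and the log2 fold change was 0.4 (SE 0.15, 95% interval 0.06 to 0.74, adjusted p = 0.125), which did not pass the test. With the trends removed the difference was larger, 0.54 (SE 0.13, adjusted p = 0.0821). It passed without knockout 2, with a log2 fold change of 0.5 (adjusted p = 0.0309), and without knockout 2 and with the trends removed, 0.62 (SE 0.1, adjusted p = 0.0144), a combination chosen after the data were seen.

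Hsp90aa1 encodes the inducible HSP90 alpha protein, which male germ cells need to complete meiosis. The gene (ENSMUSG00000021270, chr12:110690605-110702728, minus strand) measured 1000, 956 and 930 CPM in the wild-type libraries and 1010, 1320 and 1080 CPM in the knockout libraries. The groups did not overlap, by a narrow margin between wild type 1 and knockout 1, and the log2 fold change was 0.24 (SE 0.15, 95% interval -0.1 to 0.58, adjusted p = 0.34). It was 0.12 (SE 0.14) with the trends removed. Pseudogenes share 47.5% of its 50-base words, and with the counts of 2 of them added the value was 0.26 (SE 0.15, adjusted p = 0.311). The ratio of Hsp90aa1 to Hsp90ab1 per kilobase was 2.28, 2.06 and 2.24 in wild type and 1.71, 2.66 and 1.66 in knockout. Knockout 2 lay above and the others below all wild-type libraries (exact two-sided permutation p = 0.4).

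Dnajb1 encodes the inducible HSP40 protein that hands substrates to HSP70. The gene (ENSMUSG00000005483, chr8:83608193-83612653, plus strand) measured 611, 471 and 414 CPM in the wild-type libraries and 312, 354 and 354 CPM in the knockout libraries. All knockout libraries were lower than all wild-type libraries, but the wild-type libraries themselves were widely spread (499 ± 102 CPM). The log2 fold change was -0.55 (SE 0.17, 95% interval -0.94 to -0.16, adjusted p = 0.0803), and -0.28 (SE 0.18, adjusted p = 0.388) with the trends removed. Without wild type 1 it was -0.36. Set against Hsp90ab1 per kilobase, Dnajb1 stood at ratios of 1.71, 1.25 and 1.22 in wild type and 0.646, 0.875 and 0.669 in knockout. This ratio was chosen after its values were seen and is given as a description.

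Hsf1, the transcription factor of the heat shock response, had similar means in both groups. The gene (ENSMUSG00000022556, chr15:76477422-76501913, plus strand) measured 34.6, 33.3 and 35.2 CPM in the wild-type libraries and 34.9, 19.8 and 42.6 CPM in the knockout libraries. The wild-type libraries were tightly grouped, while knockout 2 was the lowest and knockout 3 the highest of the 6. The log2 fold change was -0.08 (SE 0.25, 95% interval -0.66 to 0.49, adjusted p = 0.866), and 0.17 without knockout 2. These values are of Hsf1 mRNA, and the activity of the protein was not measured.

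**Figure D2:**
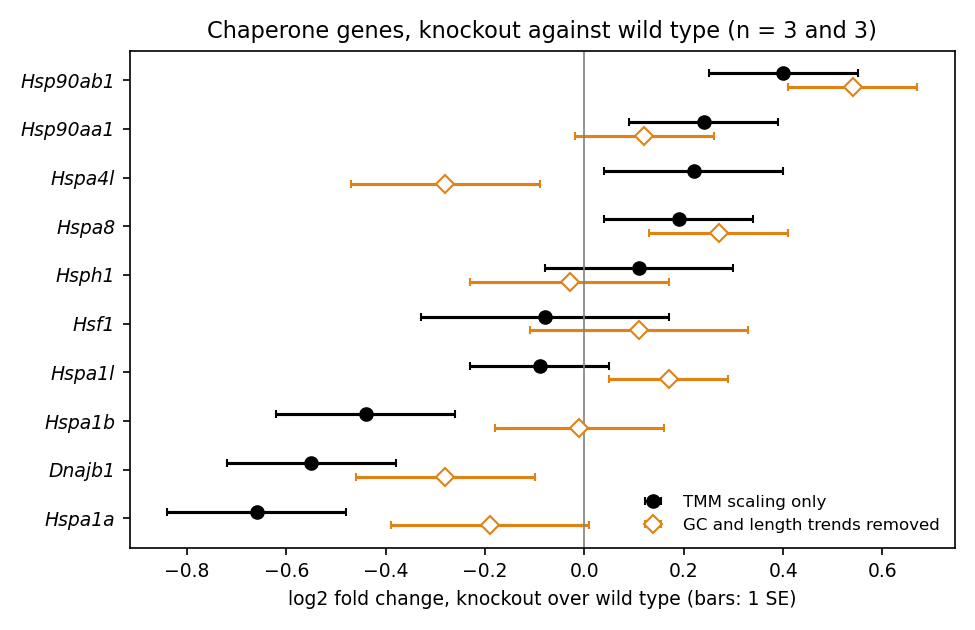
Log2 fold change of each chaperone gene, knockout over wild type, with bars of 1 SE (n = 3 and 3), from TMM scaling alone (filled circles) and with the GC and length trends of each library removed (open diamonds). Hsp90ab1 is the highest on both scales (0.4 and 0.54), the values of Hspa1a and Hspa1b move from -0.66 and -0.44 to -0.19 and -0.01, and those of Hspa4l, Hsph1, Hsf1 and Hspa1l change sign.

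The direction of the 10 genes split by the GC content of their exons. All 5 genes with more than 52% GC, Hspa1a, Hspa1b, Hspa1l, Dnajb1 and Hsf1, had a log2 fold change below 0, and the 5 below 52%, Hspa4l, Hspa8, Hsp90aa1, Hsp90ab1 and Hsph1, had one above 0. The 52% limit was set after the values were seen. Over all tested genes the median log2 fold change was 0.47 for genes of up to 40% GC, 0.26 between 40% and 45%, 0.05 between 45% and 50%, -0.19 between 50% and 55%, -0.39 between 55% and 60%, and -0.59 above 60%. The class between 50% and 55% holds Hsp90ab1, Hspa1l, Dnajb1 and Hsf1, and 7.11% of its genes were called lower and 0.407% higher. Hsp90ab1, at 50.9% GC and 0.4, went against the direction of its class. Of genes between 55% and 60% GC, the class of Hspa1a and Hspa1b, 14% were called lower and 0.125% higher, while of genes up to 40%, the class of Hspa4l, 12.9% were called higher and 0.202% lower. Removing the trends left 18 genes called in all (0.0837% of those tested) and 0 of the chaperones. That count depended on knockout 2: without it the same offsets left 2910 genes called (13.2%), with Hsp90ab1 the only chaperone. This combination was chosen after the data were seen. Such offsets remove any difference that goes with GC content or length, whatever its source, and its source was not tested.

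**Figure D3:**
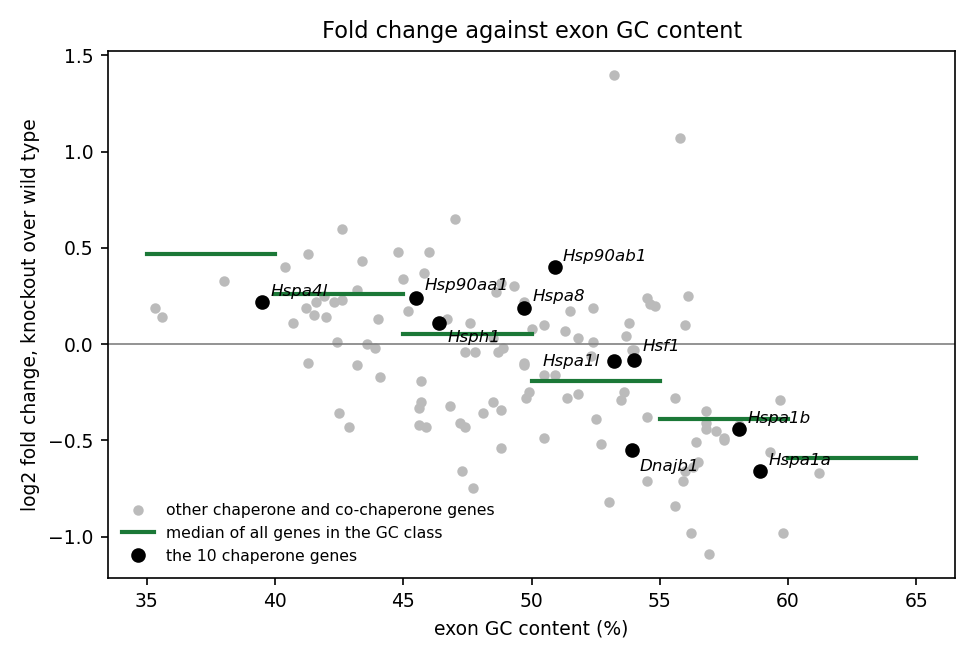
Log2 fold change (knockout over wild type) against the GC content of the exons in percent, for the 10 chaperone genes (black, named) and the other chaperone genes of the lists (grey), with the median of all tested genes in each GC class as a green line; the end classes hold all genes up to 40% and above 60%. The median falls from 0.47 to -0.59 across the classes. Hspa1a, Hspa1b, Dnajb1 and Hspa4l lie lower than the line. Hsp90ab1, Hsp90aa1, Hspa8, Hsph1, Hspa1l and Hsf1 lie higher.

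Knockout 2 lay at an end of the 6 libraries for several chaperones, with no share over all genes computed to set beside them. It was the highest of the 6 libraries for Hspa4l, Hsp90aa1 and Hsph1, at 1.46, 1.26 and 1.51 times the mean of the other knockout libraries, and the lowest for Hspa1b, Hspa1l and Hsf1, at 0.894, 0.869 and 0.511 times. The first 3 genes have exon GC of 39.5% to 46.4% and the last 3 of 53.2% to 58.1%. Hspa8 and Hsp90ab1, at 49.7% and 50.9% GC, stood in knockout 2 at 0.813 and 0.798 times the mean of the other knockout libraries. For 12751 genes with a mean log2 CPM above 2, each library's deviation from the gene's mean over the 6 libraries was set against GC content. Spearman's rho was -0.677 in knockout 2, -0.281 and -0.128 in the other knockout libraries and 0.269 to 0.533 in wild type. These values compare the libraries with each other and do not relate level to GC content within a library. The same library had the lowest mitochondrial share of the knockout group, 1.54%. The values of Hspa1a and Dnajb1 in knockout 2 lay within 1.1 times the mean of the other knockout libraries.

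Testis forms made up most of the HSP70 message. Hspa2, the spermatocyte HSP70 (ENSMUSG00000059970), stood at 661 ± 31 CPM per kilobase in wild type and 649 ± 96.8 in knockout, or 52.4% and 53.2% of the sum over 11 HSP70 genes. It had a log2 fold change of -0.03 (SE 0.15, adjusted p = 0.937), and 0.25 (adjusted p = 0.304) with the trends removed. Hspa1l held 31.7 ± 0.502% of the same sum in wild type and 30.9 ± 0.382% in knockout, and the ratio of Hspa1l to Hspa2 was 0.604 ± 0.0149 and 0.582 ± 0.0303 (exact two-sided permutation p = 0.3). Hspa8 held 3.87% and 4.58%, Hspa1a 0.867% and 0.567%, and Hspa1b 0.295% and 0.224%. As counted, the inducible pair thus stayed under 2% of HSP70 message in both groups, with the uncertainty from shared reads given above.

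Among 4 HSP90 genes, Hsp90aa1 held 48.3 ± 0.279% of the summed level in wild type and 47.7 ± 3.83% in knockout, and Hsp90ab1 22 ± 1.13% and 24.6 ± 4.37%. Of 17 DNAJA and DNAJB genes, Dnajb1 ranked the third with 8.69 ± 0.727% and 7.18 ± 0.834%, after the testis genes Dnajb3 and Dnajb8. Dnajb3 held 44.9 ± 0.591% in wild type and 33.1 ± 3.1% in knockout. Hsf1 held 6.16% and 4.91% of the summed level of 3 heat shock factor genes, where Hsf5, a testis form, held 88.9% and 89.5%.

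**Figure D4:**
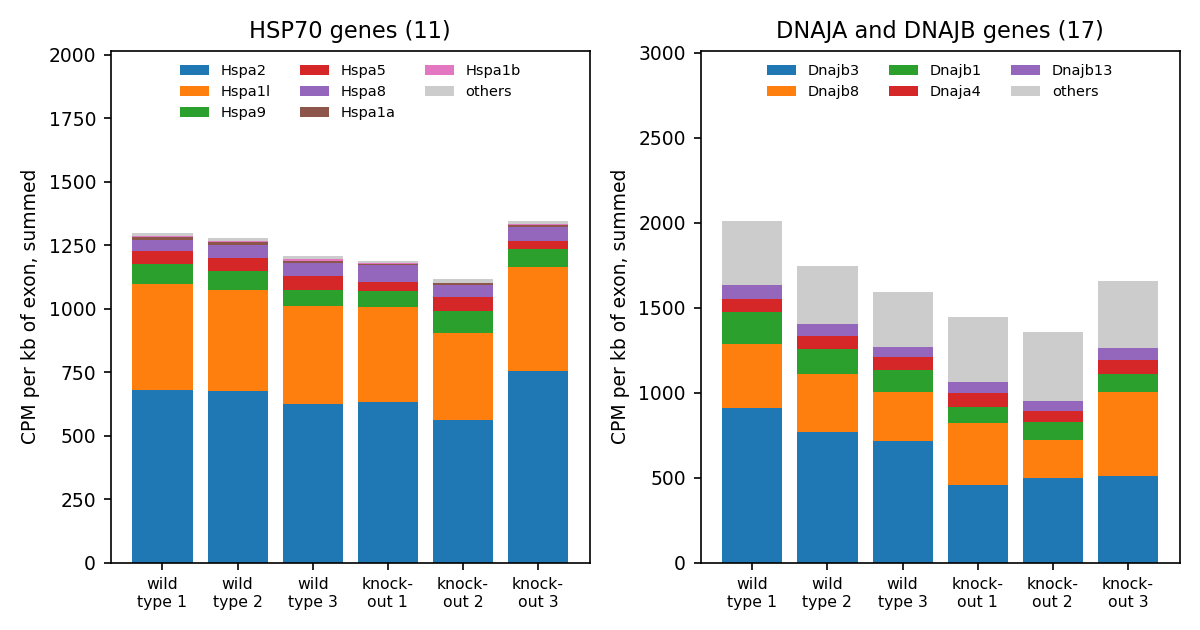
Summed level of 11 HSP70 genes and of 17 DNAJA and DNAJB genes in each library, as stacked bars in CPM per kilobase of exon starting at 0. Hspa2 and Hspa1l fill most of each HSP70 bar, and the Dnajb3 segment is smaller in all 3 knockout libraries (459 to 510 CPM per kilobase) than in the wild-type ones (718 to 909).

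Of 114 other genes of the chaperone network, written in 11 lists with earlier results of these data known, 111 were tested and 5 were called: 1 rose and 4 fell (4.5%, beside 8.23% of all genes). Their median log2 fold change was -0.06. By role, 1 of 21 HSP90 co-chaperones fell, 1 of 12 HSP70 co-chaperones and exchange factors fell, 1 of 16 other DNAJA and DNAJB genes fell, 1 of 9 tested small heat shock protein genes fell and 1 of 16 chaperones of the endoplasmic reticulum rose. The edgeR test called none of 5 other heat shock factor family genes, 8 other HSP70 genes, 16 chaperonin and prefoldin genes, 9 mitochondrial chaperones and 17 other targets of heat shock factor 1. In these 5 lists 0, 2, 2, 3 and 5 genes had an unadjusted p under 0.05, as had 27.1% of all genes. Among 13 testis chaperones 1 rose and 2 fell.

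Among partners of HSP70 and HSP90, Hspbp1, which encodes an exchange factor that lowers HSP70 activity, fell from 64.4, 57.9 and 50.6 CPM to 24.8, 24 and 32.3 CPM (log2 fold change -1.09, SE 0.18, adjusted p = 0.0168). Fkbp8, an immunophilin gene whose product binds HSP90, fell from 194, 181 and 159 CPM to 80.7, 94.3 and 95.5 CPM (-0.98, SE 0.15, adjusted p = 0.0161), and Kxd1 overlaps it on the other strand. Neither gene's groups overlapped. With the trends removed, the values were -0.68 (adjusted p = 0.0705) and -0.62 (adjusted p = 0.103), and neither passed.

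The other called genes were chaperones of germ cells. Dnajb3 fell from 955, 809 and 754 CPM to 483, 521 and 536 CPM (-0.71 on the log2 scale, SE 0.15, adjusted p = 0.0268). It lies within the span of the Ugt1a genes. Hspb9, a testis small heat shock protein gene, fell from 1730, 1170 and 934 CPM to 499, 685 and 760 CPM (-0.98, SE 0.25, adjusted p = 0.0464). Pdilt, a testis disulfide isomerase homologue, rose from 125, 137 and 128 CPM to 190, 197 and 222 CPM (0.65, SE 0.13, adjusted p = 0.027), and overlaps Acsm5. The wild-type and knockout libraries did not overlap for these 3 genes. With the trends removed, they stood at -0.3 (adjusted p = 0.212), -0.43 (adjusted p = 0.306) and 0.59 (adjusted p = 0.0736).

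The genes with the smallest p in the lists without a call were close to the threshold or well short of it. Hspa4, the partner of Hspa4l, averaged 280 ± 12.2 CPM in the wild-type and 390 ± 10.8 CPM in the knockout libraries (log2 fold change 0.48, SE 0.13, adjusted p = 0.0522). Dnajb4, a heat-inducible DNAJ gene, stood at 118 ± 4.01 and 164 ± 4.84 CPM (0.47, SE 0.13, adjusted p = 0.0534), with 0.12 after removal of the trends. The chaperonin subunit gene Cct7 stood at 730 ± 118 and 435 ± 111 CPM (-0.75, SE 0.21, adjusted p = 0.0591). Clpb, a mitochondrial disaggregase gene, stood at 911 ± 153 and 625 ± 94.8 CPM (-0.54, SE 0.18, adjusted p = 0.0933), and Hsf2, a heat shock factor gene active in spermatogenesis, at 37.6 ± 3.32 and 47.2 ± 4.19 CPM (0.33, SE 0.15, adjusted p = 0.204). With the trends removed Hsf2 changed sign, to -0.24 (adjusted p = 0.463), while Hspa4, Cct7 and Clpb stood at 0.36, -0.84 and -0.64. Reads of Cct7 and Clpb are uncertain because Pradc1 and Gm45380 overlap them.

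The genes most like Hspa1l over the 6 libraries, by Euclidean distance between log2 CPM values centred on their mean and among 9727 genes averaging 10 CPM or more, were Ap3d1 (0.043), Tktl2 (0.0515) and Tchp (0.0741). Those most like Hsph1 were the germ cell RNA helicase gene Ddx4 (0.1), Oxct1 (0.106) and Usp14 (0.135). The distances for Hsph1 were larger than those for Hspa1l, and the 6 libraries share the depth and GC differences given above.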

How the data were processed

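Gene-level RNA counts of 3 wild-type and 3 KIFC1 knockout mouse testis samples were used. The values deposited by the authors are raw, whole-number counts for each gene. Per the labels' protocols, total RNA was used with an mRNA library kit and a NovaSeq sequencer, and the submitters' processing notes name Trimmomatic, HISAT2, HTSeq and mm10. Versions, annotation release, strand setting and treatment of reads with several matches were not found in the labels. No row lacked a gene name. GENCODE M21 (GRCm38) matched 51633 of 51826 identifiers, left 193 without a symbol, and gave positions, exon lengths and GC content. Promoter windows came from RefSeq (GRCm38.p6).

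Knockout was compared with wild type by edgeR (version 4.0.16 in R 4.3.3), using its quasi-likelihood test after TMM scaling and filterByExpr, with all 6 samples and no covariates. Tests were two-sided, with Benjamini-Hochberg adjustment over 21518 genes and calls at an adjusted p under 0.05. CPM values are TMM-scaled, and a prior count of 2 entered log2 CPM only. Trends were removed with offsets from natural splines (5 degrees of freedom) in GC content and exon length, fitted on 12751 genes. Ratios within libraries were tested by exact permutation (scipy 1.17.1). On simulated knockout against wild-type counts over 21028 genes, 25% of 100 genes changed 2-fold and 75% of 100 changed 4-fold were recovered, with 3 of 103 calls false. The simulated libraries had no trend with GC content or exon length, unlike the data, so these rates may not hold for the data. Replicates differed by more than sampling noise in every pair (chi-square divided by its degrees of freedom, 15.4 to 135).

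The genes, lists and tests were chosen with earlier results of these data known. Named genes were the 10 chaperones, Kifc1, Hspa2, in each list the called genes with the smallest p (up to 4) or, with none called, the gene with the smallest p, and the highest HSP70 and testis chaperone per kilobase. For likeness the 3 nearest genes to Hspa1l and Hsph1 were named. Alternatives were DESeq2 1.42.0 (size factors, Wald test), library size alone, other filters, no mitochondrial genes, a replicate block, the offsets, and each sample left out. Fits without knockout 2 with the offsets, and with copies summed, were chosen after seeing the data.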

Additional observations from a re-analysis of the deposited data

How the results depend on the processing

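Over all genes, 1770 were called. The count was 1010 without a filter, 3284 by DESeq2's Wald test, 18 with the GC content and exon length offsets, 1 to 3149 with each sample left out, and 2910 without knockout 2 with the offsets (chosen after seeing the data). The 3149 came without knockout 2, and 1 without wild type 2 or without knockout 1. As a share of all genes tested, 8.23% were called in the main fit and 0.0837% with the offsets. The share was 11.7% (2039 genes) when genes needed 1 CPM or more in 3 samples, and 15.3% by DESeq2. It was 14.3% without knockout 2, and 13.2% without knockout 2 with the offsets. The 0 called chaperones became 1 (Hspa1a) when genes needed 1 CPM or more in 3 samples and by DESeq2, 0 to 2 with samples left out (Hspa1a and Hsp90ab1 without knockout 2), and 1 (Hsp90ab1) without knockout 2 with the offsets. The 5 called genes of the chaperone lists (4.5%) became 9 (8.26%) with the CPM filter, 17 (15.3%) by DESeq2 and 0 with the offsets. They became 0 to 23 with samples left out (20.7% without knockout 2), and 24 (21.6%) with the offsets without knockout 2. The 21 called genes within 2 Mb of Kifc1 (14%) became 39 (26%) by DESeq2 and 0 with the offsets. They became 0 to 38 with samples left out (24.7% without knockout 2), and 28 (18.2%) without knockout 2 with the offsets.

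With a replicate block, 21 genes were called (5 with the block and the offsets), 0 chaperones, 0 list genes (0 with the offsets) and 1 gene near Kifc1 (0 with the offsets). Samples of the same number did not deviate together (r = -0.286, -0.056 and -0.126). No wild-type sample correlated best with the knockout sample of its own number. Deviations were taken from the mean of each small group, and the libraries differ in their GC trend. The check therefore cannot decide whether the numbers pair the samples, and the labels do not say.

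With the offsets, the offsets and the block, and the offsets without knockout 2, the log2 fold changes that changed sign were 0.17, 0.17 and 0.19 for Hspa1l, -0.28, -0.29 and -0.47 for Hspa4l, -0.03, -0.06 and -0.27 for Hsph1, 0.11, 0.07 and 0.31 for Hsf1, 0.25, 0.24 and 0.29 for Hspa2, and -0.24, -0.24 and -0.25 for Hsf2. Samples left out gave -0.11 to 0.23 for Hsph1, -0.31 to 0.17 for Hsf1 and -0.13 to 0.07 for Hspa2, whose value was 0 with DESeq2's size factors and its Wald test. The cause was not tested. Hspa1a (-0.74 to -0.19), Hspa1b (-0.51 to -0.01), Dnajb1 (-0.67 to -0.27), Hsp90ab1 (0.33 to 0.62), Hspa8 (0.08 to 0.34) and Hsp90aa1 (0.03 to 0.31) kept their sign in every alternative run. Values nearest 0 were -0.19 (SE 0.2) for Hspa1a, -0.01 (SE 0.17) for Hspa1b, 0.08 (SE 0.17) for Hspa8 and 0.03 (SE 0.1) for Hsp90aa1. Each of these lay within 1 SE of 0, so the direction in those runs is not set. Of the called list genes, Fkbp8, Hspbp1, Dnajb3, Pdilt and Hspb9 missed the threshold in 6, 6, 9, 8 and 12 of 16 alternatives. Depth limits Hspa1b most, at 249 to 371 counts per library.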

Other observations

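The pseudogene Gm15459 and the long noncoding gene Gm26825 on chromosome 5, which both share sequence with Hspa8, had opposite patterns over the libraries. Gm15459 held 807, 847 and 40 counts in wild type and 1207, 146 and 1035 in knockout. Gm26825 held 399, 687 and 1110 counts in wild type and 306, 1602 and 243 in knockout. The libraries with the fewest Gm15459 counts, wild type 3 and knockout 2, had the most Gm26825 counts, and the split did not follow the groups. Of other Hspa8 pseudogenes, Gm8355 held 390 to 473 counts in all 6 libraries, and Gm6210 held 269 in knockout 2 and 105 to 149 in the others. In TMM-scaled CPM, Hspa8 itself was neither highest nor lowest in these 2 libraries. In raw counts Hspa8 was lowest in wild type 3 (6330 counts), the library with the smallest total.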
